A study of Mus musculus with 9 samples.

Results

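The 10 receptors described here are C-type lectin receptors of myeloid cells: Clec7a, Clec4n, Clec4d, Clec4e, Clec5a, Clec4a2, Clec12a, Clec4a1, Clec4a3 and Clec10a. They were taken by gene symbol from count tables that list 23238 symbols, of which 10107 had enough counts to be tested, and all 10 receptors were among those tested. Messenger RNA of monocytes was counted by 3′ end sequencing, which reads the end of each transcript, in 9 libraries from adult female wild-type C57BL/6N mice, each library being a pool of 5 mice. Nor_Bl_mono (3 libraries) holds blood monocytes of untreated mice. NMO_Bl_mono (3 libraries) holds blood monocytes of mice with experimental neuromyelitis optica (NMO), taken at day 1 after NMO-IgG, the patient antibody that binds the astrocyte water channel AQP4, was injected with human complement into the striatum on one side of the brain. NMO_Br_mono (3 libraries) holds monocytes sorted from the brain in the same model at the same time. All 3 groups were sorted as CD45+CD11b+P2ry12-Ly6C+Ly6G- cells, blood after a density gradient and brain after perfusion and enzymatic dissociation, so tissue and preparation cannot be told apart between the brain and blood groups. There was no group of monocytes from an uninjured or sham-injected brain, so injury, antibody and complement cannot be told apart either.

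C-type lectin receptors are surface proteins that recognise sugars, glycolipids and products of dying cells, and myeloid cells use them to sense fungi, mycobacteria and damaged tissue. Clec7a (Dectin-1) carries its own activating motif in its tail, whereas Clec4n (Dectin-2), Clec4d (MCL) and Clec4e (Mincle) signal through the adaptor Fcer1g and Clec5a (MDL-1) through the adaptor Tyrobp; both routes recruit the kinase Syk and the scaffold Card9 and lead to cytokine and chemokine genes. Clec4a2 (DCIR) and Clec12a (MICL) carry inhibitory motifs that recruit phosphatases such as Ptpn6. Clec4a1 and Clec4a3 are close relatives of Clec4a2, and Clec10a (MGL1) is an endocytic receptor for terminal galactose and N-acetylgalactosamine on macrophages and dendritic cells.

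In the GENCODE annotation of GRCm38, 9 of the 10 receptor genes lie on chromosome 6 and Clec10a lies on chromosome 11. Clec4a1, Clec4a3, Clec4a2, Clec4n, Clec4d and Clec4e are 6 of the 9 protein-coding genes of a Clec4 cluster that spans 368.0 kb. Clec4d and Clec4e stand at its end, on opposite strands and tail to tail, 6.5 kb apart. Promoter windows from RefSeq (GRCm38.p6, 250 bases before to 50 after an annotated start) matched 8 of the 10 receptors, all but Clec4n and Clec10a. Of these, the windows of Clec4d, Clec5a, Clec7a and Clec4a2 are printed because their brain libraries all lay above the NMO_Bl_mono libraries, and that of Clec4e because it is the neighbour of Clec4d and did not. They run from 5′ to 3′ on the strand of the gene, at chr6:123261857-123262156 (plus strand), chr6:123289822-123290121 (minus strand), chr6:40585756-40586055 (minus strand) and chr6:129472730-129473029 (minus strand), with Clec4a2 at chr6:123122440-123122739 (plus strand). Capitals mark matches on either strand to the PU.1 core (GAGGAA), a C/EBP motif (TTGCNNAA), an AP-1 motif (TGANTCA) or an NF-kB motif (GGG and TTTCC with 2 free bases between them); no matches of different motifs overlapped in these windows.
Clec4d: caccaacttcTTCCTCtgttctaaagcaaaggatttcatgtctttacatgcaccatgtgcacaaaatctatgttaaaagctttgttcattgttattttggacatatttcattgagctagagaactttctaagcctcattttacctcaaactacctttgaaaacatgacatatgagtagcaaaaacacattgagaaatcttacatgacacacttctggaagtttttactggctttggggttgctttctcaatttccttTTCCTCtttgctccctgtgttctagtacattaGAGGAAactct
Clec4e: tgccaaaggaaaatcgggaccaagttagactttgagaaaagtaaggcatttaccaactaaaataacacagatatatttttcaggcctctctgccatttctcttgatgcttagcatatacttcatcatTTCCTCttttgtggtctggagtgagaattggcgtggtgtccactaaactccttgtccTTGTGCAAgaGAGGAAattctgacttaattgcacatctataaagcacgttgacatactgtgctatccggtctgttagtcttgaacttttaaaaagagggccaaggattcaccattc
Clec5a: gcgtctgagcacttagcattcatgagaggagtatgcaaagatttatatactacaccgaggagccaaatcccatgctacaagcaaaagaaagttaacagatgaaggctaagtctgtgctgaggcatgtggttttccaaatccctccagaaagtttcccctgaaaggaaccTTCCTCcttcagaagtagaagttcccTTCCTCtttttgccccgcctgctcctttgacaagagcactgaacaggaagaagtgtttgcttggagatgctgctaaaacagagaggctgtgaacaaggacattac
Clec7a: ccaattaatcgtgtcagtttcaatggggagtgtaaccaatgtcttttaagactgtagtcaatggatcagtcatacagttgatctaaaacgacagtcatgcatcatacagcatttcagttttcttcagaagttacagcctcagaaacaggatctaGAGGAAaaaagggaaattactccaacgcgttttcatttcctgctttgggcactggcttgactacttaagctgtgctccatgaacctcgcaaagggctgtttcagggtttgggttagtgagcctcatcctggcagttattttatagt
Clec4a2: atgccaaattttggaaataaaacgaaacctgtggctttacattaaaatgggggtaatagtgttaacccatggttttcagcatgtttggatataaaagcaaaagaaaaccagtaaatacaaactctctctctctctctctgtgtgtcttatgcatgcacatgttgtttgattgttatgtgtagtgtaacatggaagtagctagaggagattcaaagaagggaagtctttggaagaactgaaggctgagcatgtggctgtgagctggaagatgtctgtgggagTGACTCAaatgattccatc

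The PU.1 core, the short sequence bound by a factor that directs myeloid genes, occurred in a window of 7 of the 8 receptors, against 28.3% of all 32851 promoter windows of that length. The C/EBP motif occurred in 2 of 8 (Clec4e and Clec12a), against 10.8% of all windows. The AP-1 motif occurred in 2 of 8 (Clec4a2 and Clec12a), against 7.81%, and the NF-kB motif in 0 of 8, against 1.63%. In Clec4e the C/EBP match lay 66 bases before the start, between PU.1 core matches at 123 and 56 bases before it. Clec5a held PU.1 core matches 81 and 55 bases before its start and Clec7a held 1 match 96 bases before. Clec4a2 was the 1 receptor of the 8 with no PU.1 core match, and its AP-1 match lay 32 bases after the start. That start is the one of RefSeq, at 123122690, and lies inside the GENCODE interval of the gene, which begins at 123106428. The window of Clec12a, from 129349994, also lies inside its GENCODE interval, which begins at 129342691. Sequence before these GENCODE starts was not searched. A match is a description of the letters and not a bound site, and the promoters of Clec4a3 and Clec7a were counted over 2 start sites each.

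**Figure D1:**
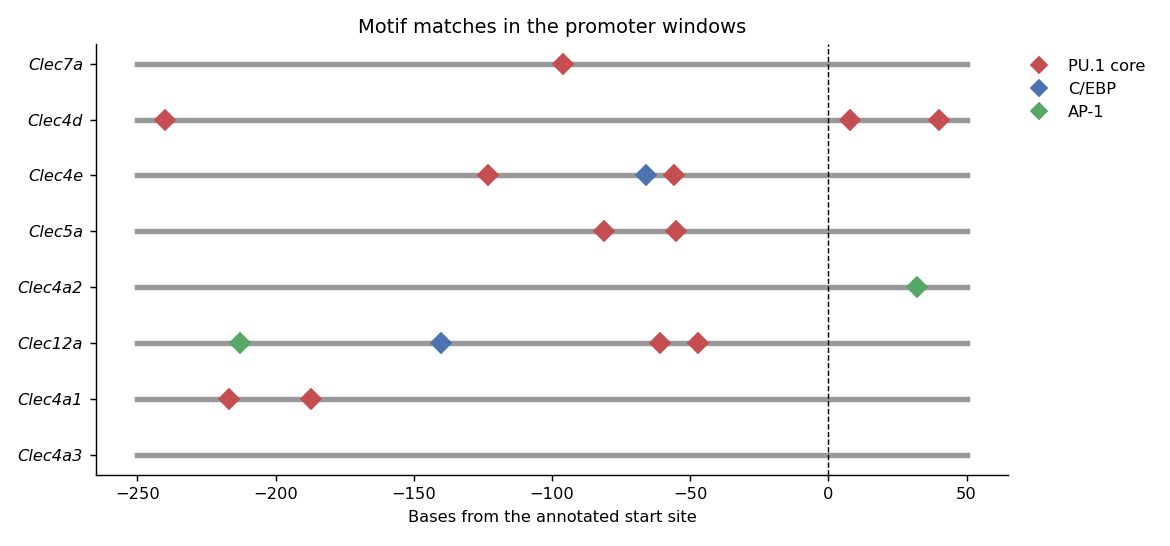
Positions of motif matches (diamonds, at the first base of the match) in the first promoter window of each receptor (grey bars), with bases from the annotated start on the horizontal axis and the start as a dashed line. Clec4d, Clec4e, Clec5a, Clec7a, Clec12a and Clec4a1 hold PU.1 core matches in this window, and Clec4a3 holds its match in its second window, which is not drawn.

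Library totals ran from 7584649 to 10419647 counts, and the number of genes with a count from 4567 to 11556. From 28.4% to 43.6% of these totals came from the single ribosomal RNA entry Rn45s, which was kept in the library sizes behind CPM. NMO_Bl_mono replicate 3 stood apart: it had the fewest genes with a count, and only 4 of the 10 receptors had more than 3 counts in it. Of the genes at 50 CPM or more in both other libraries of its group, 22.3% had 3 counts or fewer in it. That share was 8.26% in NMO_Br_mono replicate 2, with 6473 genes with a count, and 1.94% in Nor_Bl_mono replicate 3, so a 0 in these libraries is less certain than counting error alone would give. Nor_Bl_mono replicate 3 had 7 of the 10 receptors above 3 counts, and the other 7 libraries had all 10. By counting error alone, a 0 in NMO_Bl_mono replicate 3 allows up to 0.273 CPM (counts scaled to a common library size with TMM factors, the unit of every level here). The fitted difference of each receptor between NMO_Br_mono and NMO_Bl_mono is given with and without both blood replicates 3, a choice made after seeing the data. Among cell type markers, the summed monocyte list ranged from 4509 to 8324 CPM over all libraries, but its members moved apart. In NMO_Br_mono against NMO_Bl_mono 4 of 10 lay higher and 2 lower without overlap, against 6.3% and 6.05% of all genes. The higher ones were Ccr2, Csf1r, Itgam (CD11b) and Fcgr1. Ccr2 was at 1297, 786 and 1133 CPM in brain and 691, 668 and 89.8 in NMO blood. Csf1r was at 1364, 766 and 825 CPM against 727, 567 and 167. Itgam was at 652, 415 and 520 CPM against 321, 310 and 353, and Fcgr1 at 175, 35.5 and 132 against 33.6, 16.2 and 0. The lower ones were Ptprc (CD45), at 1009, 466 and 729 CPM in brain and 1682, 1851 and 1303 in NMO blood, and the sort marker Ly6c2, at 437, 59.4 and 199 CPM in brain and 662, 739 and 496 in NMO blood. The summed microglia list was 439 to 721 CPM in NMO_Br_mono and 0 to 74.1 CPM in the 6 blood libraries; its defining gene Tmem119 was at 78.4, 0 and 21.0 CPM in the brain libraries and at 0 in all 6 blood libraries, and P2ry12, which the sort selected against, ranged from 9.95 to 69.7 CPM in brain and from 0 to 43.4 in blood. Of the 8 tested microglia markers 4 lay above all 6 blood libraries, against 3.57% of all genes, and 0 below. They were Fcrls, Olfml3, Sparc and P2ry13. Fcrls was at 52.7, 77.5 and 50.5 CPM in brain and Olfml3 at 8.71, 33.2 and 18.2 CPM, and both were at 0 in blood. The neutrophil list was 444 to 1875 CPM in brain and 85.0 to 317 in blood. In brain its highest means were those of S100a8 (450 CPM) and S100a9 (390 CPM). Retnlg of the same list was at 0 in brain, with means of 31.9 CPM in NMO blood and 82.5 CPM in normal blood. The dendritic cell list was 191 to 637 CPM in brain against 23.2 to 245 in blood. The border-associated macrophage list was 70.1 to 232 CPM in brain and 108 to 562 in blood, where Pf4, also a platelet gene, made up much of it; of its 5 tested members Mrc1 (25.3, 62.1 and 37.0 CPM in brain, 4.48, 12.2 and 0 in NMO blood) and Ms4a7 (25.8, 51.9 and 14.5 CPM against 5.32, 6.96 and 0) lay higher in brain without overlap and Pf4 lay lower. For such separation from NMO blood the shares over all genes were 6.3% higher and 6.05% lower. The non-classical monocyte list was 1241 to 1756 CPM in brain, 765 to 1638 in NMO blood and 1449 to 2025 in normal blood. Against NMO blood 2 of its 8 members lay higher without overlap and 1 lower, beside the same shares of all genes. The higher ones were Nr4a1 and Cx3cr1. Nr4a1 was at 600, 728 and 562 CPM in brain and 438, 452 and 71.0 in NMO blood. Cx3cr1 was at 544, 297 and 337 CPM against 202, 153 and 0.09. The lower one was Spn, at 67.0, 55.7 and 54.3 CPM in brain and 276, 267 and 350 in NMO blood. The marker genes given with values here were named after their values were seen. Lymphocyte and NK markers were 39.7 to 276 CPM in brain against 1699 to 2498 in blood, and platelet and erythroid markers 40.3 to 425 against 1263 to 6621. In NMO_Br_mono against NMO_Bl_mono, 5 of 8 microglia markers, 2 of 9 neutrophil markers and 1 of 10 dendritic cell markers that were tested were higher at an unadjusted edgeR p under 0.05, against 1.48% of all genes. At that level 2 of 10 monocyte, 1 of 8 non-classical monocyte, 1 of 9 neutrophil and 1 of 5 border-associated macrophage markers were lower, against 3.84% of all genes. So were 4 of 10 lymphocyte and NK markers and 7 of 9 platelet and erythroid markers. Siglech stood in both the microglia and the dendritic cell list, and Pf4 in both the border-associated macrophage and the platelet and erythroid list. Mrc1, Cd209a and Clec9a also stood in the list of other C-type lectin receptors described below. The lists are thus not independent of each other. The marker lists moved with the comparison of brain with blood, and their part in the receptor values was not tested.

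**Figure D2:**
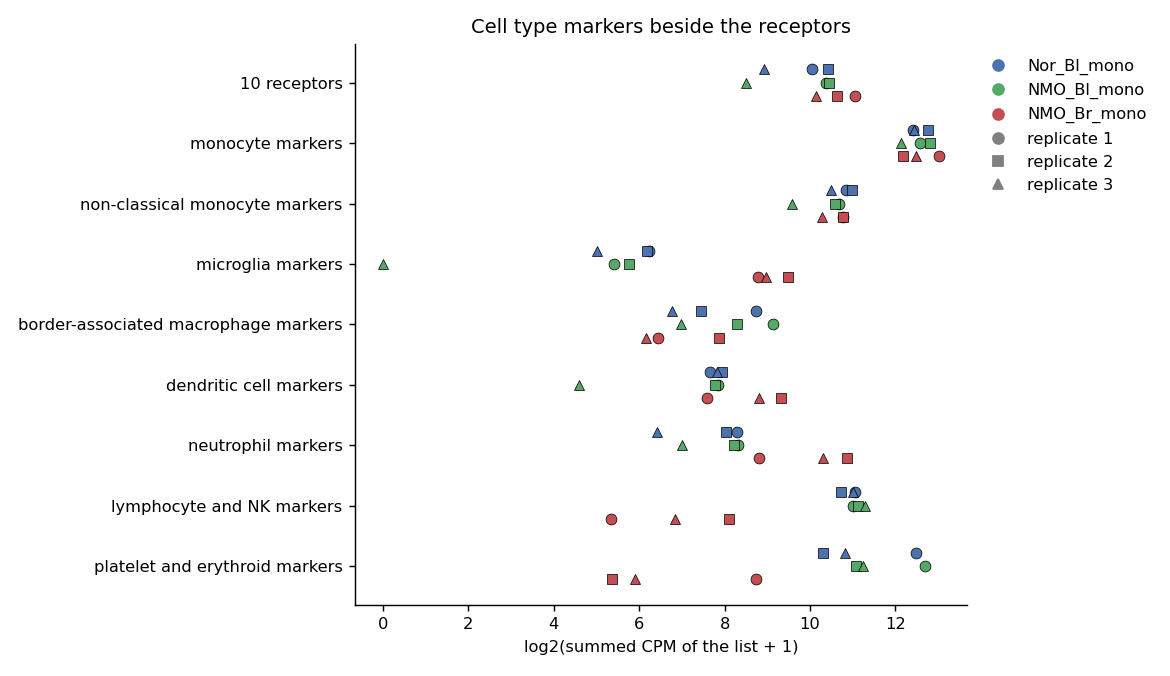
Summed CPM of each marker list and of the 10 receptors in each library, as log2(summed CPM + 1), coloured by group and shaped by replicate. Microglia and neutrophil lists lie higher in every NMO_Br_mono library than in any blood library, and lymphocyte and platelet lists lie lower.

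The main question was how monocytes in the NMO brain differ from those in the blood of the same model. Transcripts of Clec4n, Clec5a, Clec4d, Clec4a2 and Clec7a were higher in each of the 3 NMO_Br_mono libraries than in any NMO_Bl_mono library. That is 5 of the 10 receptors, against 6.3% of all genes tested whose groups did not overlap in this direction. None of the 10 passed an adjusted p of 0.05 in edgeR's quasi-likelihood test, against 0.247% of all genes, and 1 (Clec4n) had an unadjusted p under 0.05, against 1.48% of genes higher at that level. DESeq2 called 1 receptor at adjusted p, Clec4n, against 3.32% of all genes, and limma-voom called 0, against 0.505%. The fitted log2 fold change was positive for 7 receptors and negative for 3, with a median of 0.95, beside a median of 0.05 over all genes tested. In sorted bulk libraries, fewer cells that express a receptor and less of its RNA per cell cannot be told apart.

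Clec4n encodes Dectin-2, a receptor for mannans of fungal walls (chr6:123229843-123247021, plus strand). It was at 321, 156 and 124 CPM in the NMO_Br_mono libraries. It was at 5.74, 10.99 and 0 CPM in NMO_Bl_mono and at 20.4, 4.12 and 0.10 CPM in Nor_Bl_mono. Every brain library lay above every blood library, and the blood groups overlapped each other. The mean was 200 ± 105 CPM in NMO_Br_mono, 5.58 ± 5.50 in NMO_Bl_mono and 8.22 ± 10.8 in Nor_Bl_mono (SD, n = 3 each). Clec4n was 5.16 ± 1.85 (SE) higher on the log2 scale in NMO_Br_mono than in NMO_Bl_mono (95% interval 1.19 to 9.14, edgeR adjusted p = 0.80). Against both blood groups together the difference was 4.89 ± 1.37 (edgeR adjusted p = 0.25). The call depended on the tool and the libraries: the latter adjusted p was 0.0046 in DESeq2, 0.024 in limma-voom and 0.038 in edgeR without both blood replicates 3 (from 0.00087 to 0.58 over its alternatives), and over the comparisons with brain the log2 difference ranged from 4.04 to 7.03 under the alternatives that could test it. Without NMO_Br_mono replicate 1, the highest library, the unadjusted call against NMO_Bl_mono was lost. Without both blood replicates 3 the difference from NMO_Bl_mono was 4.59.

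**Figure D3:**
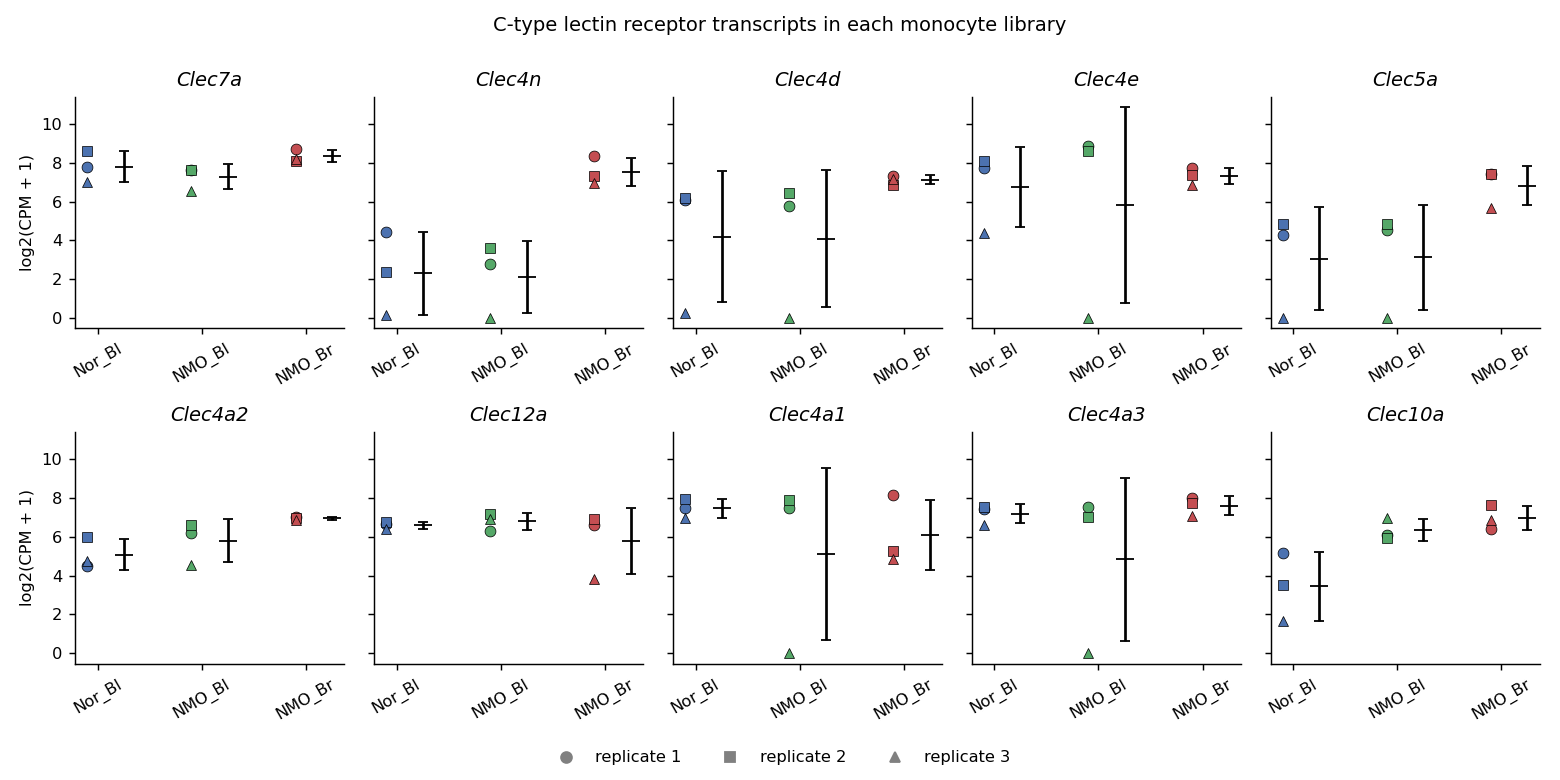
Level of each receptor in each library as log2(CPM + 1), with replicate shown by shape and group by colour; bars beside the points give the mean and SD of each group on this scale (n = 3). Clec4n is below 21 CPM in all blood libraries and above 124 CPM in the brain libraries, and NMO_Bl_mono replicate 3 (green triangles) is at 0 for Clec4n, Clec4d, Clec4e, Clec5a, Clec4a1 and Clec4a3.

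Clec4d and Clec4e are neighbours whose products pair with Fcer1g and bind mycobacterial glycolipid. Clec4d (chr6:123262111-123275265, plus strand) was at 159, 117 and 144 CPM in NMO_Br_mono. It was at 53.5, 87.2 and 0 CPM in NMO_Bl_mono and at 67.5, 72.2 and 0.20 CPM in Nor_Bl_mono, so that brain lay above every blood library. The log2 difference of brain from NMO blood was 1.58 ± 1.71 (SE), with an interval of -2.09 to 5.26 and an edgeR adjusted p of 1. It was 1.01 without both blood replicates 3, and it ranged from 1.01 to 2.40 with 1 library left out and up to 4.89 under the other alternatives. Clec4e (chr6:123281789-123289870, minus strand) was at 209, 167 and 116 CPM in NMO_Br_mono. It was at 466, 390 and 0 CPM in NMO_Bl_mono and at 215, 273 and 20.1 CPM in Nor_Bl_mono. The groups overlapped, because both blood replicates 3 lay below the brain libraries while the other 4 blood libraries lay above them. The fitted difference of brain from NMO blood was -0.80 ± 1.45 (SE, edgeR adjusted p = 1). Without both blood replicates 3 it was -1.38, with an unadjusted p under the 0.05 threshold in edgeR and an adjusted p of 0.35, the smallest over its alternatives (up to 1). The sign of this difference was not the same under every alternative run. In that reduced set of libraries Clec4e was the 1 receptor of 10 below NMO blood without overlap, against 20.3% of all genes, and 6 receptors were above, against 7.39%.

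Clec5a, a receptor that signals through Tyrobp (chr6:40574894-40585821, minus strand), was at 168, 171 and 48.9 CPM in NMO_Br_mono. It was at 21.7, 27.4 and 0 CPM in NMO_Bl_mono and at 18.6, 27.8 and 0 CPM in Nor_Bl_mono. The lowest brain library was above the highest blood library, at 27.8 CPM. The log2 difference of brain from NMO blood was 2.98 ± 1.97 (SE, interval -1.25 to 7.22, edgeR adjusted p = 1). Without both blood replicates 3 it was 2.41 with an edgeR adjusted p of 0.61 (0.43 to 1 over the alternatives).

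Clec7a, the receptor for fungal beta-glucan (chr6:129461591-129472779, minus strand), was detected in all 9 libraries. It was at 425, 276 and 294 CPM in NMO_Br_mono, at 198, 200 and 92.4 CPM in NMO_Bl_mono and at 220, 386 and 130 CPM in Nor_Bl_mono. Brain lay above NMO blood without overlap but overlapped normal blood, where replicate 2 was at 386 CPM. The log2 difference of brain from NMO blood was 1.02 ± 0.54 (SE, interval -0.14 to 2.18, edgeR adjusted p = 0.80), and it was 0.75 without both blood replicates 3.

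The inhibitory receptors differed from each other in how their libraries were ordered. Clec4a2 (chr6:123106428-123143999, plus strand) was at 130, 126 and 115 CPM in NMO_Br_mono, at 74.0, 97.7 and 22.2 CPM in NMO_Bl_mono and at 21.4, 63.4 and 26.2 CPM in Nor_Bl_mono. The brain libraries were close together, with an SD of 7.80 CPM, and lay above every blood library. The log2 difference of brain was 0.94 ± 0.90 (SE) from NMO blood and 1.74 ± 0.92 from normal blood (edgeR adjusted p = 1 and adjusted p = 0.73), and the former was 0.54 without both blood replicates 3. Its gene overlaps the processed pseudogene Gm44132 on the same strand, and 4.6% of the 75-base stretches at its transcript ends are shared with Clec4a4 or Clec4b1, so part of its counts can come from those genes. Clec12a, which binds uric acid crystals of dead cells (chr6:129342691-129365303, plus strand), was at 96.8, 119 and 13.3 CPM in NMO_Br_mono, at 79.6, 144 and 122 CPM in NMO_Bl_mono and at 99.5, 108 and 84.4 CPM in Nor_Bl_mono. Only NMO_Br_mono replicate 3 fell outside the range of the blood libraries, and the log2 difference of brain from NMO blood was -0.59 ± 0.84 (SE, interval -2.39 to 1.21, edgeR adjusted p = 1), or -0.08 without that library and -0.54 without both blood replicates 3.

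The relatives of Clec4a2 overlapped between all groups. Clec4a1 (chr6:122921848-122934619, plus strand) was at 286, 38.0 and 27.9 CPM in NMO_Br_mono, at 177, 242 and 0 CPM in NMO_Bl_mono and at 178, 248 and 124 CPM in Nor_Bl_mono. NMO_Br_mono replicate 1 was the highest of the 9 libraries, and the other brain libraries lay below all blood libraries but NMO_Bl_mono replicate 3. The log2 difference of brain from NMO blood was -0.25 ± 1.45 (SE, edgeR adjusted p = 1), and it was -0.82 without both blood replicates 3 and -2.08 without NMO_Br_mono replicate 1; its sign was not the same under every alternative run. Clec4a3 (chr6:122952515-122969875, plus strand) was at 254, 217 and 133 CPM in NMO_Br_mono, at 184, 129 and 0 CPM in NMO_Bl_mono and at 174, 185 and 97.98 CPM in Nor_Bl_mono. Its log2 difference of brain from NMO blood was 0.95 ± 1.32 (SE, interval -1.87 to 3.78, edgeR adjusted p = 1). It was 0.38 without both blood replicates 3, 0.38 without NMO_Bl_mono replicate 3 and 1.64 without NMO_Bl_mono replicate 1.

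Clec10a (chr11:70156197-70170834, plus strand) was the receptor with the largest fitted difference between the blood groups. It was at 35.5, 10.4 and 2.15 CPM in Nor_Bl_mono and at 67.8, 60.9 and 126 CPM in NMO_Bl_mono, and it was at 84.5, 200 and 115 CPM in NMO_Br_mono. Both NMO groups lay above every normal blood library, and they overlapped each other. The log2 difference of brain from NMO blood was 0.64 ± 1.00 (SE, interval -1.50 to 2.79, edgeR adjusted p = 1), and it was 1.06 without both blood replicates 3. The transcript ends of Clec10a share 10% of their 75-base stretches with Mgl2, and reads that aligned to several places were counted, so part of its counts can come from Mgl2 transcripts.

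**Figure D4:**
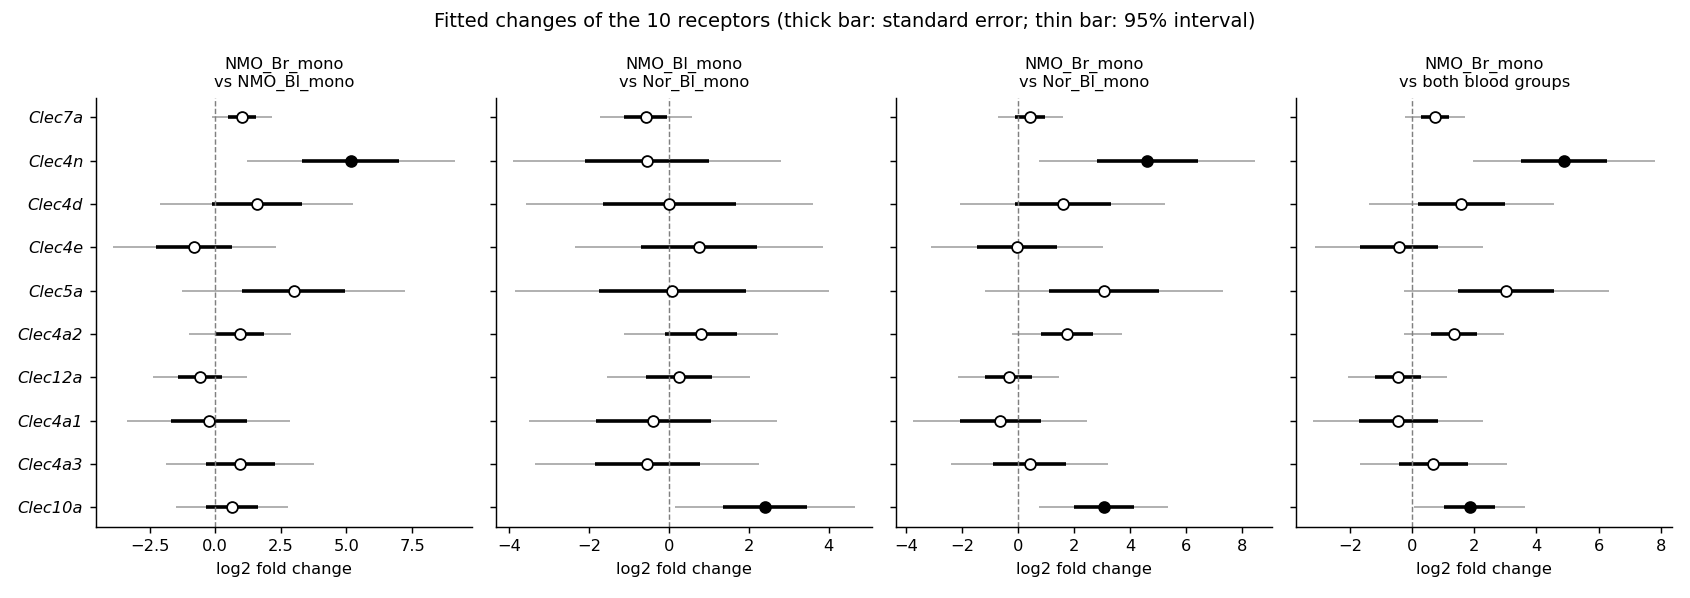
Fitted log2 fold change of each receptor in the 4 comparisons, with the standard error as a thick bar and the 95% interval as a thin bar; filled points have an unadjusted edgeR p under 0.05, and the panels differ in their horizontal scale. Clec4n is filled in the 3 comparisons with brain and Clec10a in the 3 comparisons that include normal blood.

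The second question was whether blood monocytes changed with the disease model. Clec10a was 2.41 ± 1.05 (SE) higher on the log2 scale in NMO_Bl_mono than in Nor_Bl_mono (95% interval 0.16 to 4.66, edgeR adjusted p = 1). It was the 1 receptor of 10 whose groups did not overlap, against 2.34% of all genes in this direction, and the 1 with an unadjusted p under 0.05, against 0.465%. None of the 10 passed an adjusted p of 0.05 in edgeR, DESeq2 or limma-voom, which called 0%, 0.683% and 0% of all genes in this comparison. The median log2 difference over the receptors was 0.05, beside -0.16 over all genes tested. Without both blood replicates 3, Clec10a differed by 1.49, and its unadjusted edgeR call was lost. The widest intervals belonged to the receptors at 0 in NMO_Bl_mono replicate 3, such as Clec5a at 0.08 ± 1.83 (SE, interval -3.85 to 4.02), so differences of several log2 units were not detectable for them. Clec7a had the narrowest interval, at -0.58 ± 0.54 (SE, interval -1.74 to 0.57, edgeR adjusted p = 1).

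Brain monocytes were also set against normal blood, which shares its brain libraries with the first comparison and its blood libraries with the second. Clec4n was 4.61 ± 1.80 (SE) higher on the log2 scale in NMO_Br_mono than in Nor_Bl_mono (edgeR adjusted p = 0.71). Clec10a was 3.05 ± 1.08 (SE) higher (edgeR adjusted p = 0.71). They were the 2 receptors of 10 at an unadjusted p under 0.05, against 1.75% of all genes in this direction. None passed an adjusted p of 0.05 in edgeR, against 0.247% of all genes, whereas DESeq2 called both (adjusted p = 0.048 for Clec4n, with a range of 0.048 to 0.93 over the alternatives, and 0.044 for Clec10a, with a range of 0.044 to 1) and limma-voom called neither. DESeq2 called 3.62% of all genes in this comparison and limma-voom 0.327%. Clec4a2, Clec4d, Clec4n, Clec5a and Clec10a lay above normal blood without overlap, 5 of 10 against 6.07% of all genes.

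With all 6 blood libraries as the reference, 4 of the 10 receptors (Clec4a2, Clec4d, Clec4n and Clec5a) had every brain library above every blood library, against 3.57% of all genes. None passed an adjusted p of 0.05 in edgeR, against 0.435% of all genes, and DESeq2 and limma-voom called 1 each, Clec4n, against 4.9% and 1.21% of all genes. At an unadjusted p under 0.05 there were 2 receptors, Clec4n and Clec10a, against 2.62% of genes higher. Clec10a differed by 1.85 ± 0.83 (SE, edgeR adjusted p = 0.62), and its brain libraries overlapped NMO_Bl_mono replicate 3, at 126 CPM. Without both blood replicates 3, Clec10a joined the separated receptors, which were then 5 of 10 against 4.89% of all genes, and Clec4e was the 1 receptor below all remaining blood libraries, against 12.5% of all genes.

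The levels of several receptors followed the same libraries. For the 3 receptors with the highest mean level, the tested genes with the most similar pattern over the 9 libraries were taken from 2912 genes with a mean of at least 50 CPM, by Pearson's r of log2(CPM + 1). They were Slfn4 (r = 0.945), Rpl10 (0.922) and Osbpl9 (0.919) for Clec7a. They were Gramd1a (0.982), Zc3h12a (0.982) and Zeb2 (0.981) for Clec4e, and Larp1 (0.996), Pafah1b1 (0.995) and Zfc3h1 (0.994) for Clec4a3. Larp1, Pafah1b1, Gramd1a and Slfn4 were at 0 CPM and Zfc3h1 and Zc3h12a at 0.09 CPM in NMO_Bl_mono replicate 3. Clec4a3 and Clec4e were also at 0 there. Clec7a, Zeb2, Rpl10 and Osbpl9 had their lowest levels in it, at 92.4, 68.7, 210 and 36.9 CPM, so these correlations share that library. They are a description over 3 groups of 3 libraries.

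Among transcripts of the proteins that carry the receptors' signals, none passed the adjusted edgeR test. Of 18 listed adaptors and kinases 17 were tested; at an unadjusted p under 0.05 in NMO_Br_mono against NMO_Bl_mono, 1 was higher, against 1.48% of all genes, and 0 lower in edgeR. That gene was Fgr, a Src family kinase of myeloid cells, at 389, 268 and 458 CPM in brain and at 163, 221 and 43.1 CPM in NMO blood (log2 difference 1.38 ± 0.62 (SE), edgeR adjusted p = 0.80). Fcer1g, the partner of Clec4n, Clec4d and Clec4e, was at 1433, 744 and 940 CPM in brain and at 768, 1176 and 211 CPM in NMO blood. The groups overlapped, with a log2 difference of 0.53 ± 0.49 (SE, interval -0.51 to 1.58). Tyrobp, the partner of Clec5a, was at 892, 392 and 542 CPM in brain and at 703, 748 and 446 CPM in NMO blood, a log2 difference of -0.06 ± 0.40 (SE, interval -0.92 to 0.81). Syk differed by -0.70 ± 0.63 (SE, interval -2.05 to 0.65). Card9, the scaffold downstream of Syk, was low: it was at 8.48, 0 and 0 CPM in brain and at 13.03, 8.38 and 0 CPM in NMO blood. Lyn differed by 0.85 ± 0.46, Malt1 by -0.79 ± 0.68 and Nfatc1 by -1.07 ± 0.71 on the log2 scale (SE). None of the 3 listed inhibitory phosphatases passed even the unadjusted test: Ptpn6 differed by 0.41 ± 0.76, Inpp5d by -0.52 ± 0.62 and Ptpn11 by -2.15 ± 1.90 (SE).

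Of the 17 listed downstream target genes, 14 were tested, and in the same comparison 1 was higher and 2 were lower at an unadjusted edgeR p under 0.05, against 1.48% and 3.84% of all genes, with 0 at the adjusted threshold. Pycard, the adaptor of inflammasomes, was at 205, 105 and 243 CPM in brain and at 54.5, 60.2 and 19.6 CPM in NMO blood (log2 difference 2.04 ± 0.77 (SE), edgeR adjusted p = 0.80). Il1b, named after its values were seen, was the other target above NMO blood without overlap, at 1595, 1515 and 961 CPM in brain and at 239, 306 and 0 CPM in NMO blood (log2 difference 2.90 ± 1.72 (SE), edgeR adjusted p = 0.90). Of the 14 tested targets, 6 had a positive and 8 a negative log2 fold change, with a median of -0.58. Tnf was at 37.2, 93.7 and 43.0 CPM in brain and at 313, 340 and 0 CPM in NMO blood. Nlrp3 was at 15.2, 59.1 and 83.4 CPM in brain and at 213, 228 and 0 CPM in NMO blood. The chemokine gene Cxcl1 was at 0.11, 0 and 0 CPM in brain and at 49.0, 46.8 and 0 CPM in NMO blood (edgeR adjusted p = 0.69). Egr3, an early response transcription factor, was at 0 in all 3 brain libraries and at 5.18, 3.70 and 56.9 CPM in NMO blood (edgeR adjusted p = 0.80). Il6 was also at 0 in all 3 brain libraries and at 10.2, 17.4 and 0 CPM in NMO blood, and missed the unadjusted threshold in edgeR. The groups of Cxcl1 and Il6 overlapped at 0 because of NMO_Bl_mono replicate 3.

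Beyond the 10 receptors, 42 other C-type lectin receptor genes were listed, of which 18 were tested and 14 had no count in any library. In NMO_Br_mono against NMO_Bl_mono, 2 were higher and 1 lower at an unadjusted edgeR p under 0.05, against 1.48% and 3.84% of all genes, and 0 passed the adjusted threshold. Without overlap, 4 of the 18 lay above NMO blood, against 6.3% of all genes, and 0 below, against 6.05%. Above all 6 blood libraries lay 3 of the 18, against 3.57%. Brain libraries above blood were thus not particular to the 10 receptors. Cd93, a group XIV lectin of monocytes and endothelium, was at 439, 405 and 423 CPM in brain and at 87.4, 170 and 107 CPM in NMO blood. Its log2 difference was 1.80 ± 0.55 (SE, edgeR adjusted p = 0.50), and against both blood groups it was 2.17 ± 0.44 with an edgeR adjusted p of 0.053. Mgl2, the paralogue of Clec10a, was at 78.9, 44.8 and 99.99 CPM in brain and at 2.52, 1.63 and 0 CPM in NMO blood (log2 difference 5.74 ± 2.43 (SE), edgeR adjusted p = 0.80). Its level in NMO blood was low where Clec10a was at 60.9 to 126 CPM. Clec1b, the podoplanin receptor of platelets, was at 0, 0.10 and 0 CPM in brain and at 73.8, 7.84 and 0 CPM in NMO blood (edgeR adjusted p = 0.65). Like the summed platelet and erythroid list, Clec1b was low in brain. In NMO_Bl_mono replicate 3, however, it was at 0 where Gp9 and Pf4 of that list were at 123 and 126 CPM. The part of these markers was not tested. Colec12 was at 0 in all 3 brain libraries and at 3.08, 4.57 and 0 CPM in NMO blood, and missed the unadjusted threshold too.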

How the data were processed

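Monocytes were sorted from blood or brain, RNA of 9 pools of 5 mice was sequenced from the 3′ end, and per the labels' processing notes reads were handled with Bowtie2, bedtools and the mm10 genome (versions not given in the sources used here). The deposited values were raw counts per gene, which the authors did not normalise in these files, and reads aligned to several places were counted. Each file had 23282 entries; for 35 symbols that occurred more than once, only the entry with the largest summed count was used. Genes were filtered with filterByExpr, scaled with TMM and fitted over all 9 libraries in 1 model with edgeR 4.0.16 (R 4.3.3, quasi-likelihood test, Benjamini-Hochberg adjustment over 10107 genes, threshold 0.05); tests are two-sided. The SE was derived from the log2 fold change and its F statistic. The fit was tested on simulated data, but the run that was checked had a spread far below that of these libraries (common dispersion 2.87). How well changes are found at the spread of these libraries is not given here. Libraries totalled 7584649 to 10419647 counts, and the limit that a count of 0 allows (3 counts) covers counting error only. Replicates are separate pools as the labels number them, so p-values measure the spread between pools. DESeq2 1.42.0 and limma-voom (limma 3.58.1), other scalings, other filters, a fit without Rn45s, a replicate block and left-out libraries were alternatives. Named genes were the 10 receptors, Fcer1g, Tyrobp, Syk and Card9, and at most 4 genes per pathway list with the smallest p in NMO_Br_mono against NMO_Bl_mono; marker genes and Larp1 and its like come from their own lists and the likeness rule. Il1b, Tnf and Nlrp3 were named outside that rule, after their values were seen. The receptors and lists were chosen with earlier results of these data known. Positions are from GENCODE on GRCm38 and promoters from RefSeq on GRCm38.p6.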

Additional observations from a re-analysis of the deposited data

How the results depend on the processing

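Of the 10 receptors, none was called at adjusted p in the main edgeR test in any of the 4 comparisons, and no left-out library changed that. In NMO_Br_mono against NMO_Bl_mono the count became 1 (Clec4n) with no expression filter (adjusted p = 0.048) and with DESeq2, and in NMO_Br_mono against Nor_Bl_mono it became 2 with DESeq2. Against both blood groups it became 1 with no filter, DESeq2, limma-voom and both blood replicates 3 left out. Over all genes, DESeq2 called 336 in the first comparison where edgeR called 25, and 366 where edgeR called 25 against normal blood. It called 495 against both blood groups, where edgeR called 44, and 69 in NMO_Bl_mono against Nor_Bl_mono, where edgeR called 0. With no filter edgeR called 110, 115, 181 and 2 genes in these comparisons. The counts at unadjusted p, 1 in NMO_Br_mono against NMO_Bl_mono, became 2 with a replicate block, 2 with limma-voom and 3 without both blood replicates 3. These counts take both directions together, and the 3 include Clec4e, which was lower. Over all genes the counts at that level were 538 of 10107 in the main test, 368 with the replicate block and 1274 with limma-voom. Without both blood replicates 3 the all-gene count was 875 of 11152. In NMO_Bl_mono against Nor_Bl_mono the count of 1 became 0 with a replicate block, without both blood replicates 3 and with only the groups compared. Over all genes 72 had such a p in the main test there and 30 with the replicate block. In NMO_Br_mono against Nor_Bl_mono the count of 2 became 4 without both blood replicates 3. Against both blood groups the count of 2 became 4 with DESeq2, 4 with limma-voom and 5 without both blood replicates 3. With 1 library left out, the receptor counts ranged from 0 to 1, 0 to 1, 1 to 3 and 1 to 3 in the same order. All-gene counts are not set beside these ranges or beside the comparisons of brain with normal blood and with both blood groups. The shifts are therefore not read as a result about the receptors.

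The sign of small differences was not stable. In NMO_Br_mono against NMO_Bl_mono the replicate block turned Clec4a1 to 0.062 and Clec4e to 0.70, and with 1 library left out Clec4a1 ranged from -2.08 to 0.42. In NMO_Bl_mono against Nor_Bl_mono Clec4d turned to -0.010 with RLE factors, -0.010 with DESeq2 and -0.083 with the replicate block, and Clec4n to 0.31 with limma-voom. There, with 1 library left out, Clec4d ranged from -0.80 to 0.60, Clec4n from -1.52 to 1.40, Clec5a from -0.51 to 0.82, Clec4a1 from -1.05 to 0.19 and Clec4a3 from -1.24 to 0.041. In NMO_Br_mono against Nor_Bl_mono Clec4e turned to 0.060 with RLE factors, 0.077 with library sizes alone, 0.060 with DESeq2 and 1.06 with the replicate block, and ranged from -0.56 to 0.47 with 1 library left out, as Clec12a did from -0.81 to 0.16. Against both blood groups the replicate block turned Clec4e to 0.88, and with 1 library left out Clec4a1 ranged from -2.28 to 0.031 and Clec12a from -0.93 to 0.041. The causes were not tested.

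Equal replicate numbers were not shown to pair the libraries: their correlations of deviations from the group means ran from -0.01 to 0.12. Each Nor_Bl_mono library matched the NMO_Bl_mono library of its own number best (r = 0.116, 0.015 and 0.069). Against NMO_Br_mono not every library did. Untreated and injected mice are different animals, so Nor_Bl_mono cannot share mice with either NMO group. Correlations this weak cannot decide whether equal numbers share a batch. Nor can they decide whether NMO_Bl_mono and NMO_Br_mono pools share mice, and the main fit treated these pools as independent. The replicate block changed no adjusted call of a receptor. limma-voom with quality weights moved the median of all genes from 0.05 to -0.65 in NMO_Br_mono against NMO_Bl_mono, and the receptors' median to 0.64. A minimum of 10 counts in every library left 4 receptors to test, and the fit of only the groups compared was not run against both blood groups. In NMO_Bl_mono replicate 3 and Nor_Bl_mono replicate 3 the low number of receptors with counts limits what the blood groups can show.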
